A study of Mus musculus with 8 samples.

Results

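The genes described here are 10 enzymes of fatty acid making and remodelling, namely Acly, Acaca and Fasn for synthesis, Elovl6 and Elovl5 for elongation, and Scd1, Scd2, Fads1, Fads2 and Fads3 for desaturation. Each was read from the probe set (the probes that together report a transcript) annotated with its symbol and no other, and 19938 genes were measured in this way. Acaca had 2 such probe sets, and the one with the higher mean over the 8 arrays was used. RNA came from adipose precursors (APs) of male C57BL/6J mice aged 7 to 8 weeks, with no engineered allele named, that had been fed a high fat diet (HFD) or a standard diet (SD) for 3 days. The 4 groups were HFD viAPs and SD viAPs, from visceral (perigonadal) fat, and HFD scAPs and SD scAPs, from subcutaneous (inguinal) fat. Each group had 2 Affymetrix Mouse Gene 1.0 ST arrays, with RNA of 3 mice pooled on each. The cells were held on beads against SCA-1 after beads against CD45 and CD31 had removed blood and endothelial cells, so they are an enriched fraction and not a single cell type. Arrays are named by their group and by the number that their label carries.

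Fatty acid synthesis turns citrate that leaves the mitochondria into saturated fatty acids. ATP citrate lyase (Acly) splits citrate into acetyl-CoA, acetyl-CoA carboxylase (Acaca) makes malonyl-CoA from it, and fatty acid synthase (Fasn) joins these units into palmitate. Elongases of the endoplasmic reticulum lengthen the product or fatty acids from food, stearoyl-CoA desaturases place the first double bond in a saturated chain, and the front-end desaturases Fads1 and Fads2 add double bonds on the way to arachidonic acid and other polyunsaturated fatty acids. In adipose tissue these genes are best known from adipocytes, which store the products as triglyceride, and many of them are transcribed under the sterol regulatory element-binding proteins. Precursors of adipocytes also need fatty acids for the membranes that they build when they divide or differentiate.

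The precursor marker Pdgfra was bright on every array, at 11.01 to 11.56 on the log2 scale that is used for all levels below, where a difference of 1 is a 2-fold difference. Of 18 mature adipocyte markers 8 were above a level of 7 on at least 3 arrays. The adipocyte hormone Adipoq was dim (4.58 to 5.98), while Lpl (10.66 to 12.04) and Fabp4 (8.25 to 9.99) of the same list were bright. Of 12 blood cell markers none met that demand, and 1, Cd68, was above 7 on 2 arrays. One array went against its label in genes of depot identity. In 13 of 14 such genes the other 3 viAP arrays were apart from the 4 scAP arrays, and in all 13 the array labelled SD viAP replicate 4 was nearer to the mean of the scAP arrays. Tbx15, a transcription factor of subcutaneous fat, read 3.91 and 4.09 in HFD viAPs, and 4.70 on SD viAP replicate 3 but 9.77 on SD viAP replicate 4, against 9.34 to 9.67 in scAPs. Tcf21, a transcription factor of visceral fat, read 5.32 on that array but 9.61 to 10.61 on the other viAP arrays, against 5.04 to 5.52 in scAPs, and Wt1, another such factor, read 5.98 but 8.71 to 9.09, against 5.88 to 6.51 in scAPs. Each mean of SD viAPs below holds this array. For the diet changes of the 10 genes in viAPs, the value without it is given where leaving it out ended or made a call or moved the change by over 1.5 times. For other genes and comparisons such values are given only in part. All 10 genes passed the filter used for the tests, which asks for a level above 7 on 3 or more arrays and for variability between arrays in the upper tercile, so they were partly selected for varying.

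All 10 genes read higher on both HFD arrays than on both SD arrays in viAPs, and 8 of them did so in scAPs, where Scd1 and Elovl5 overlapped. Among the 3076 probe sets tested 78.7% were apart in this direction in viAPs and 62.3% in scAPs. In 7 genes all 4 HFD arrays were above all 4 SD arrays, as in 46% of the probe sets. In viAPs 7 genes rose after HFD (limma, adjusted p under 0.05), namely Acly, Acaca, Fasn, Elovl5, Scd2, Fads1 and Fads2. The background share called higher was 60.6%, so that 7 of 10 lay near it. In scAPs 6 genes rose, namely Acly, Fasn, Elovl6, Scd2, Fads1 and Fads2, beside 29.1% of the probe sets tested. With a change of at least 2-fold as a further demand, 4 of 10 genes passed in viAPs (Acaca, Scd2, Fads1 and Fads2) beside a background of 12.5%, and 4 of 10 in scAPs (Elovl6, Scd2, Fads1 and Fads2) beside 3.22%. None fell in either depot, beside 4.19% of the probe sets tested in viAPs and 1.3% in scAPs. The calls depended on single arrays. Without HFD viAP replicate 5 none of the 10 genes passed in viAPs (adjusted p of 0.0501 to 0.235, background 1.37%), and 4 passed without SD viAP replicate 4 (Acly, Fasn, Fads1 and Fads2, background 41.9%), although all 10 changes were above 0 in both cases. In scAPs none passed without SD scAP replicate 2 (background 0%), HFD scAP replicate 7 (0.065%) or HFD scAP replicate 8 (0%).

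The median change of the 10 genes was 0.78 in viAPs and 0.79 in scAPs, with a range of 0.60 to 1.57 in viAPs and of 0.05 to 1.31 in scAPs. The median of all tested probe sets was 0.63 in viAPs and 0.40 in scAPs, while that of all probe sets on the array was -0.05 and 0.00. Further scaling of the arrays moved these values together. A second quantile normalization gave medians of 0.44 and 0.70 for the 10 genes, beside 0.38 and 0.25 for the tested probe sets, and left 6 genes called in viAPs (30.3% of all) and 2 in scAPs (5.69% of all). With each array centred on its median all 10 were called in viAPs, beside 66.9% of all. A change in these pools may be more RNA per cell or more cells of a type that expresses the gene, which cannot be told apart. The p-values measure only the spread between 2 pools per group.

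**Figure D1:**
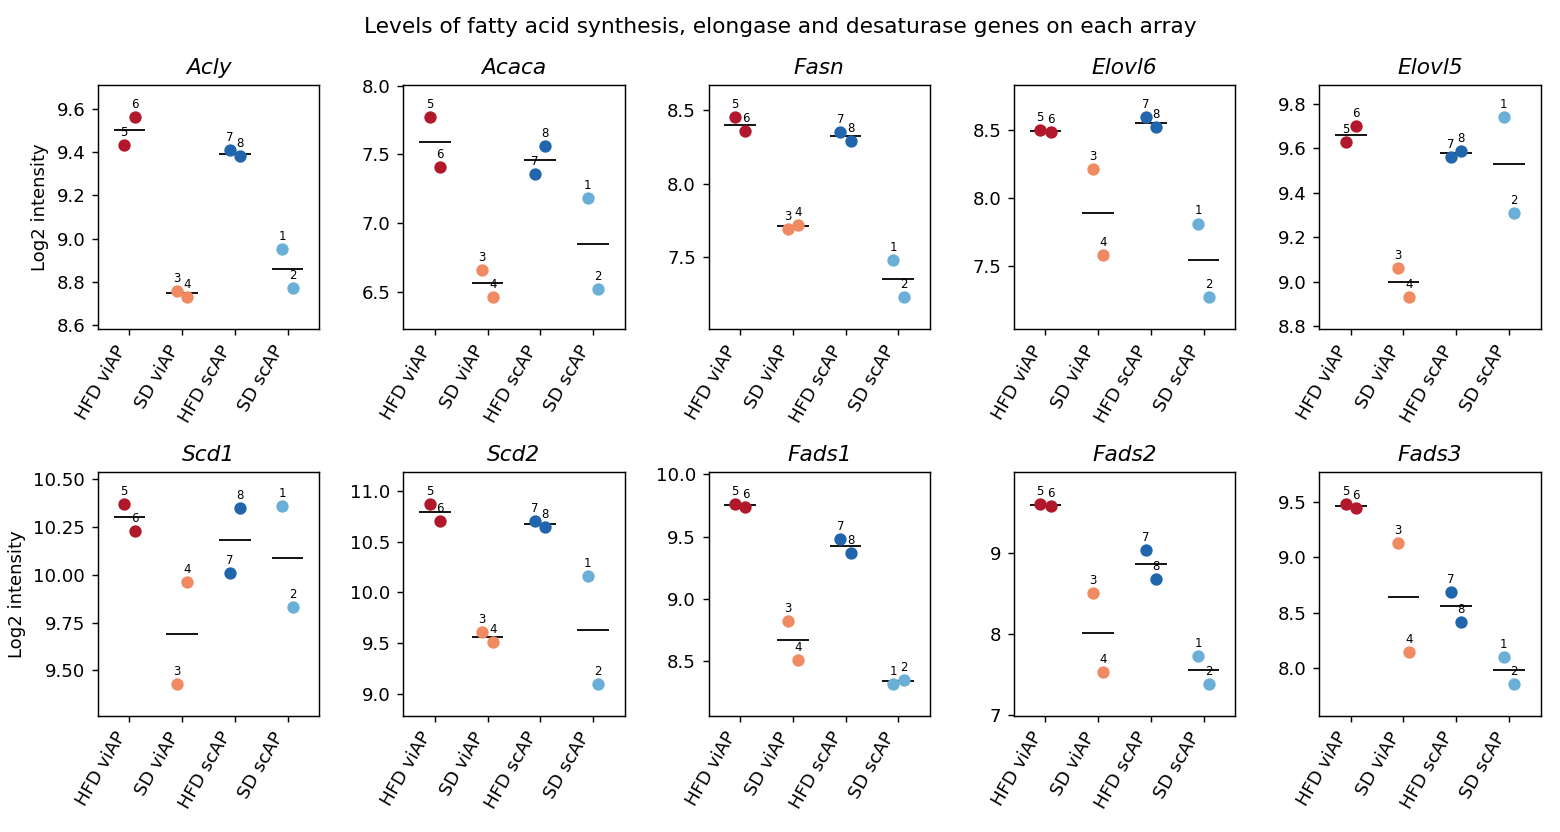
Log2 intensity (y axis) of each gene on each of the 8 arrays, by group (x axis). Dots are arrays, labelled with their replicate number, and black lines are group means of 2 arrays. In Acly, Acaca, Fasn, Elovl6, Scd2, Fads1 and Fads2 every HFD array lies above every SD array, and each y axis has its own range.

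Acly and Fasn had tight replicates and rose in both depots. Acly read 9.43 and 9.56 in HFD viAPs, against 8.76 and 8.73 in SD viAPs, and 9.41 and 9.38 in HFD scAPs, against 8.95 and 8.77 in SD scAPs. It rose by 0.75 (SE 0.12) in viAPs and by 0.54 (SE 0.12) in scAPs, with limma adjusted p of 0.00543 and 0.0245. The change in viAPs was a fold of 1.68, with every HFD array above every SD array.

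Fasn read 8.45 and 8.36 in HFD viAPs, against 7.69 and 7.72 in SD viAPs, and 8.35 and 8.29 in HFD scAPs, against 7.48 and 7.23 in SD scAPs. The gap of the HFD arrays to the SD arrays was wider than that within any group. Fasn rose by 0.70 (SE 0.13, limma adjusted p = 0.00669) in viAPs and by 0.97 (SE 0.13, adjusted p = 0.0141) in scAPs, which is a fold of 1.95 in scAPs. In scAPs 4.3% of the tested probe sets rose by more than Fasn, and in viAPs 40.9%.

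Acaca, which makes the malonyl-CoA that both Fasn and the elongases use, was called in viAPs. It read 7.77 and 7.41 in HFD viAPs, against 6.66 and 6.46 in SD viAPs, a rise of 1.03 (SE 0.24, limma adjusted p = 0.0126). In scAPs it read 7.36 and 7.56 after HFD, against 7.18 and 6.52 on SD, and the difference of 0.61 (SE 0.24) did not pass (adjusted p = 0.0978). The SD scAP arrays were far apart here, and SD scAP replicate 1 lay close to the HFD arrays. Without it the change in scAPs was 0.94 (adjusted p = 0.0296), and without SD scAP replicate 2 it was 0.28 (adjusted p = 0.396). The call in viAPs was lost without SD viAP replicate 4 (0.93, adjusted p = 0.0639). A dimmer Acaca probe set outside the filter read 6.43 and 5.95 in HFD viAPs, against 5.43 and 5.13 in SD viAPs. On it the change in viAPs was 0.91 (SE 0.41, adjusted p = 0.211 over the 21789 probe sets with a single symbol), so the size was alike and the call was not made.

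Each elongase was called in 1 depot, and the difference of its changes between the depots did not pass for either. Elovl6, which lengthens palmitate to stearate, read 8.50 and 8.48 in HFD viAPs, against 8.21 and 7.58 in SD viAPs, and 8.59 and 8.52 in HFD scAPs, against 7.81 and 7.27 in SD scAPs. The 4 HFD arrays lay within a narrow band and the SD arrays were spread below it. Elovl6 rose by 1.01 (SE 0.25, limma adjusted p = 0.0310) in scAPs, and in viAPs the change was 0.60 (SE 0.25, adjusted p = 0.0719). The value in viAPs turned on the SD arrays, at 0.28 (adjusted p = 0.347) without SD viAP replicate 4 and 0.91 (adjusted p = 0.0261) without SD viAP replicate 3.

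Elovl5, which lengthens polyunsaturated fatty acids between the steps of Fads2 and Fads1, read 9.63 and 9.70 in HFD viAPs, against 9.06 and 8.93 in SD viAPs. In scAPs it read 9.56 and 9.59 after HFD, between the SD values of 9.74 and 9.31. The SD viAP arrays were the low ones, and the HFD arrays of both depots lay within the range of the SD scAP arrays. The change was 0.66 (SE 0.16, limma adjusted p = 0.0141) in viAPs and 0.05 (SE 0.16, 95% interval -0.34 to 0.44, adjusted p = 0.829) in scAPs. Its diet changes differed by 0.62 (SE 0.23), with an unadjusted p of 0.0338 and an adjusted p of 0.369, so a difference between the depots was not established. Without SD viAP replicate 4 the change in viAPs was 0.60 (adjusted p = 0.0624).

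The stearoyl-CoA desaturases moved unequally. Scd2, the form expressed in many tissues besides fat and liver, read 10.87 and 10.70 in HFD viAPs, against 9.61 and 9.51 in SD viAPs, and 10.70 and 10.64 in HFD scAPs, against 10.16 and 9.10 in SD scAPs. It rose by 1.23 (SE 0.31, limma adjusted p = 0.0159), a fold of 2.34, in viAPs, and by 1.18 (adjusted p = 0.0736) without SD viAP replicate 4. In scAPs the change was 1.04 (SE 0.31, adjusted p = 0.0481), and this call was lost when any of 7 of the 8 arrays was left out, all but SD scAP replicate 1. The change there was 0.51 (adjusted p = 0.0786) without SD scAP replicate 2 and 1.57 (adjusted p = 0.0246) without SD scAP replicate 1.

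Scd1, the main stearoyl-CoA desaturase of mouse liver and adipocytes, read 10.37 and 10.23 in HFD viAPs, against 9.43 and 9.96 in SD viAPs, and 10.01 and 10.35 in HFD scAPs, against 10.36 and 9.83 in SD scAPs. In viAPs the groups were apart, with a change of 0.61 (SE 0.25) that did not pass (limma adjusted p = 0.0673) and was 0.34 without SD viAP replicate 3, and in scAPs they overlapped, with a change of 0.09 (95% interval -0.51 to 0.69, adjusted p = 0.803). Under the second quantile normalization the change of Scd1 in scAPs was -0.12 and that of Elovl5 -0.17. Scd3 and Scd4, the other mouse members, were dim, at 4.75 to 5.36 and 3.81 to 4.17. In the RefSeq gene order of chromosome 19 the 4 genes stand side by side as Scd3, Scd2, Scd4 and Scd1. Of 8 measured genes around them 0 lay in the filter and 0 passed in either depot. They were adjusted over all 21789 probe sets, of which 4.30% were called higher in viAPs and 0.00459% in scAPs. So few passed there that this count cannot set the neighbours apart from the Scd genes.

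**Figure D2:**
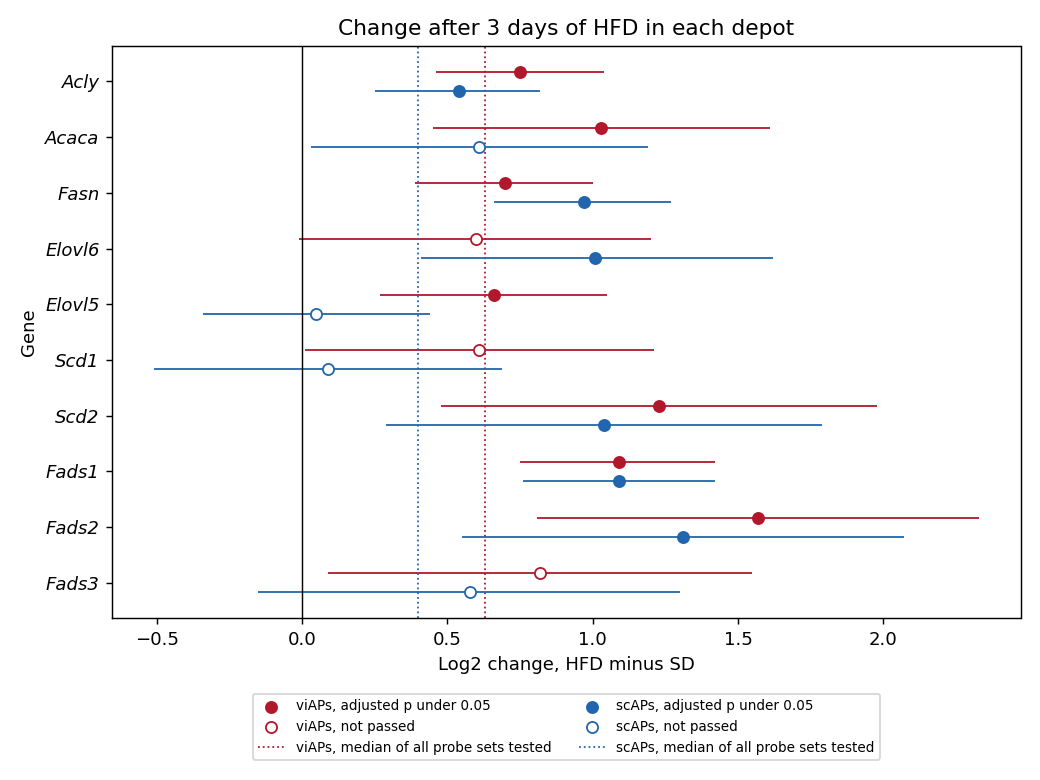
Log2 change after HFD (x axis, HFD minus SD) of each gene (y axis), in viAPs (red) and in scAPs (blue). Points are limma estimates from 2 arrays per group with 95% intervals, filled where the adjusted p is under 0.05, and dotted lines are the medians of all tested probe sets (0.63 in viAPs and 0.40 in scAPs). Fads2 has the largest of the 10 estimates in both depots, which passes to Scd2 without SD viAP replicate 4 (1.18 against 1.08) and without SD scAP replicate 1 (1.57 against 1.48), and Scd1 and Elovl5 lie near 0 in scAPs.

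The front-end desaturases stand side by side on chromosome 19 as Fads3, Fads2 and Fads1. Fads2 takes the first step from linoleic and alpha-linolenic acid, Fads1 the later step that yields arachidonic acid, and Fads3 acts on sphingoid bases. Fads1 and Fads2 rose in both depots, and Fasn with them, but no promoter of Fads1 was available. The promoters of Fads2, of Fasn and of the neighbour Fads3, which passed in neither depot, are shown (RefSeq, GRCm38.p6). They run from 250 bases before to 50 bases after the annotated start, 5′ to 3′ on the gene's strand. Capitals mark CCAAT boxes, the motif that nuclear factor Y binds, read as CCAAT or as its complement ATTGG. Fads2 (chr19:10101454-10101753, minus strand) has 0, Fads3 (chr19:10041298-10041597, plus strand) has 2, which begin 106 and 78 bases before the start, and Fasn (chr11:120824498-120824797, minus strand) has 3, which begin 90, 62 and 59 bases before it, the last 2 of them overlapping.
Fads2: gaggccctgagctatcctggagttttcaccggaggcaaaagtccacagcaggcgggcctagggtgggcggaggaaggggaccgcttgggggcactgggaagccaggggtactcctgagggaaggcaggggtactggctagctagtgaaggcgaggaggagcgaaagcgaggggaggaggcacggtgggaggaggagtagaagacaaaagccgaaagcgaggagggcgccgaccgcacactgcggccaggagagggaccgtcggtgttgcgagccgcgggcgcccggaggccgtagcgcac
Fads3: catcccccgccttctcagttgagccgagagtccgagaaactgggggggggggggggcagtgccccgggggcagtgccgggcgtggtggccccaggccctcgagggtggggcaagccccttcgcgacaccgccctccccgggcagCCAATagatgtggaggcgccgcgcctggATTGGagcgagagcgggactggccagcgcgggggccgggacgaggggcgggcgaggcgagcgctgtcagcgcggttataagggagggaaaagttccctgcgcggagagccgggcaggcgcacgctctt
Fasn: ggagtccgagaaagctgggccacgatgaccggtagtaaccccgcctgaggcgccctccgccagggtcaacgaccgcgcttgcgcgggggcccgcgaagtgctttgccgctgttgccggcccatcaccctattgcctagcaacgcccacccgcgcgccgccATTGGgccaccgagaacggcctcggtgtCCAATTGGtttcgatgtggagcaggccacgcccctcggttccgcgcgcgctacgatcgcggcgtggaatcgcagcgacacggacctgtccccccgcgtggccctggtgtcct
The table of promoters held 7 of the 10 genes, all but Scd1, Scd2 and Fads1. A CCAAT box on either strand was in 4 of the 7 (Acly, Fasn, Fads3 and Elovl5) and in 37.4% of all 32851 promoters of this length. A GC box (GGGCGG) was in 3 of the 7 and in 35.7% of all, an E-box (CACGTG) in 1 (Elovl5) and in 7.15% of all, and a core of the sterol response element (TCACNCCAC) in 0 and in 1.24% of all. All were sought on both strands, only as the letters given and only in this window, and Fads2 held only a GC box among them. With a share of 1.24% over all promoters, a count of 0 in 7 does not set these genes apart from other promoters. The GC content was 67.0% for Fads2, 73.0% for Fads3 and 69.3% for Fasn, beside a median of 52.7% over all promoters.

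Fads2 rose in both depots, with the largest of the 10 estimates over all 8 arrays. It read 9.60 and 9.58 in HFD viAPs, against 8.50 and 7.52 in SD viAPs, and 9.03 and 8.68 in HFD scAPs, against 7.72 and 7.38 in SD scAPs. Every HFD array was above every SD array, and the HFD viAP arrays were the highest. Fads2 rose by 1.57 (SE 0.32, limma adjusted p = 0.00857), a fold of 2.98, in viAPs, and by 1.31 (SE 0.32, adjusted p = 0.0289), a fold of 2.48, in scAPs. It was the 47th highest change of the 3076 probe sets in viAPs and the 37th in scAPs. Its SD viAP arrays lay far apart (SD 0.69, n = 2), and the change in viAPs was 1.08 without SD viAP replicate 4 (adjusted p = 0.0229) and 2.06 without SD viAP replicate 3 (adjusted p = 0.00556). The first place was not stable. Scd2 was above Fads2 in viAPs without SD viAP replicate 4 (1.18), and in scAPs without SD scAP replicate 1 (1.57, against 1.48 for Fads2).

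Fads1 had closer replicates. It read 9.76 and 9.74 in HFD viAPs, against 8.82 and 8.51 in SD viAPs, and 9.48 and 9.37 in HFD scAPs, against 8.32 and 8.35 in SD scAPs. The 4 groups did not overlap at all, in the order HFD viAPs, HFD scAPs, SD viAPs and SD scAPs from high to low. Fads1 rose by 1.09 (SE 0.14) in both depots, a fold of 2.12, with limma adjusted p of 0.00409 in viAPs and 0.0141 in scAPs. The difference of its changes between the depots had a 95% interval of -0.47 to 0.47.

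Fads3 passed in neither depot. It read 9.48 and 9.44 in HFD viAPs, against 9.13 and 8.15 in SD viAPs, and 8.69 and 8.42 in HFD scAPs, against 8.10 and 7.86 in SD scAPs. SD viAP replicate 3 was near the HFD viAP arrays and SD viAP replicate 4 was within the range of the scAP arrays. The change after HFD was 0.82 (SE 0.31, limma adjusted p = 0.0506) in viAPs and 0.58 (SE 0.31, adjusted p = 0.181) in scAPs, and neither passed. Without SD viAP replicate 4 the change in viAPs was 0.33 (adjusted p = 0.174), and without SD viAP replicate 3 it was 1.31 (adjusted p = 0.00741). Of 6 measured neighbours of the Fads genes 1 lay in the filter, Rab3il1, an exchange factor for Rab proteins that lies next to Fads3. Rab3il1 was called in viAPs (0.71, adjusted p = 0.040, background 60.6%), a call that was lost with each of 6 arrays when left out singly. The others, adjusted over all 21789 probe sets, did not pass.

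Across the 8 arrays the levels of the 7 genes with every HFD array above every SD array ran together, with Pearson's r of 0.801 to 0.97 over their 21 pairs. It was 0.97 for Fads1 and Fads2, 0.963 for Fasn and Fads1, 0.961 for Acaca and Scd2, and 0.801 for Acaca and Fads2. The other 3 genes spread more widely. Elovl5 had 0.249 (with Fads3) to 0.837 (with Acaca), Scd1 had 0.061 (with Fads3) to 0.782 (with Elovl5), and Fads3 had 0.061 to 0.908 (with Fads2). These are descriptions over 8 arrays that share the 4 groups, so that the diet itself is in each of them, and the 7 genes were set apart by the same levels. Among the tested probe sets the pattern of Fads2 was most like that of Akap12 (0.993), Vcan (0.99), Abca8a (0.989), Septin10 (0.988) and Fbln5 (0.987). That of Scd1 was most like Ifit2 (0.971), Pls3 (0.965), Mmadhc (0.964), Capza1 (0.957) and Glb1l (0.956).

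Between the depots, the 3 Fads genes read higher in viAPs and the other genes were near each other after HFD. After HFD both viAP arrays were above both scAP arrays in 7 of 10 genes and below them in 1, Elovl6, beside 39.5% of tested probe sets above and 27.1% below. No gene passed the test of this difference (background 1.79% higher and 0.78% lower), and 1, Fads3, had an unadjusted p under 0.05. The 3 largest were Fads3 at 0.90 (SE 0.31, limma adjusted p = 0.138), Fads2 at 0.73 (SE 0.32, adjusted p = 0.228) and Fads1 at 0.33 (SE 0.14, adjusted p = 0.213). The other 7 lay at -0.06 to 0.13. Without SD viAP replicate 4, which enters only the estimate of the spread, the adjusted p of Fads3 was 0.0203 (background 8.78% higher), and without SD viAP replicate 3 it was the same.

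On SD, no gene passed between viAPs and scAPs, and 0% of the tested probe sets did in either direction (limma). The unadjusted p was under 0.05 in 2 of the 10 genes, Fasn and Elovl5, and in 773 of the 3076 probe sets. Both viAP arrays were above both scAP arrays in Fasn, Fads1 and Fads3 and below them in Acly and Elovl5, beside 13.8% of the tested probe sets above and 32.2% below. The difference was 0.66 (SE 0.31, limma adjusted p = 0.225) for Fads3, 0.47 (SE 0.32, adjusted p = 0.361) for Fads2, 0.36 (SE 0.13, adjusted p = 0.168) for Fasn and -0.53 (SE 0.16, adjusted p = 0.139) for Elovl5. These values rest on SD viAP replicate 4. Without it Fads3 was higher in viAPs by 1.15 (adjusted p = 0.0256), Fads2 read 0.96 higher (adjusted p = 0.0525) and Fads1 0.49 higher (adjusted p = 0.0604), beside 5.10% of the tested probe sets called higher. The part of cells from another depot in that array was not tested.

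**Figure D3:**
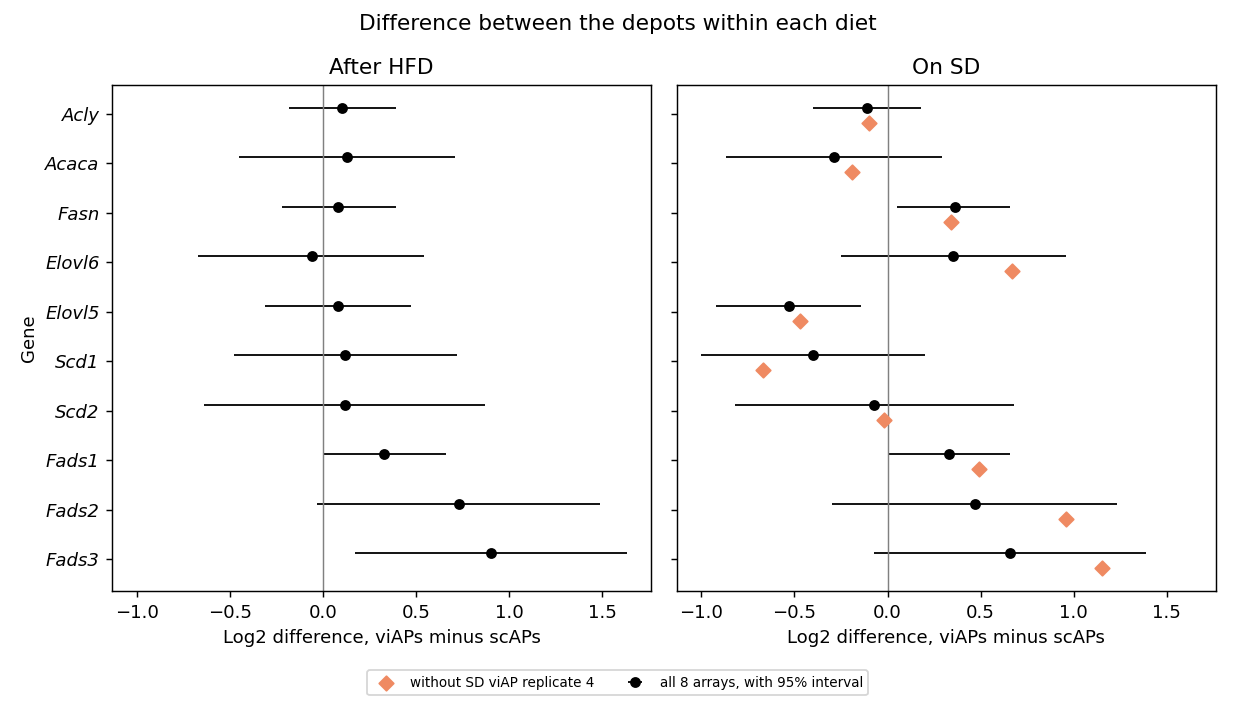
Log2 difference between the depots (x axis, viAPs minus scAPs) of each gene (y axis), after HFD (left) and on SD (right). Black points are limma estimates with 95% intervals over all 8 arrays, and orange diamonds are the estimates on SD without SD viAP replicate 4, which move Fads3 to 1.15 and Fads2 to 0.96.

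Whether the diet acted differently on the depots was asked by subtracting the change in scAPs from that in viAPs. No gene passed (limma), and 0% of the tested probe sets did, of which 397 had an unadjusted p under 0.05. The differences ran from -0.42 for Elovl6 (95% interval -1.27 to 0.44) to 0.62 for Elovl5 (95% interval 0.06 to 1.17), with adjusted p of 0.369 to 0.999. Without SD viAP replicate 4 they ran from -0.73 for Elovl6 to 0.79 for Scd1, and no gene passed. In 1 of 10 genes, Elovl5, the unadjusted p was under 0.05. The intervals of 7 of the 10 genes reached beyond a 2-fold difference, among them Scd1 (-0.33 to 1.37) and Fads2 (-0.81 to 1.34), and those of Acly, Fasn and Fads1 did not.

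Other genes around the pathway were read for comparison. The isoform of acetyl-CoA carboxylase that is tied to fatty acid oxidation, Acacb, was dim (5.78 to 6.09), as were the acetyl-CoA synthetase Acss2 (6.32 to 6.69), the lipogenic regulators Mlxipl (5.81 to 6.36) and Thrsp (5.21 to 6.00), and the elongases Elovl2 (4.46 to 4.75), Elovl3 (3.91 to 4.52), Elovl4 (5.25 to 5.78) and Elovl7 (4.00 to 4.46). Elovl1, which makes very long saturated chains, was bright (9.34 to 10.06) with changes of 0.22 in viAPs (-0.06 without SD viAP replicate 4) and 0.21 in scAPs that did not pass. Of 10 other elongases and desaturases only Degs1, which desaturates dihydroceramide, rose, by 0.51 in viAPs (SE 0.12, limma adjusted p = 0.0138) and by 0.51 in scAPs (SE 0.12, adjusted p = 0.0279). Among 12 partners of the elongation cycle and electron donors, Hacd3, a dehydratase of that cycle, rose in viAPs by 0.90 (adjusted p = 0.0201, and 0.85 with adjusted p = 0.0873 without SD viAP replicate 4), and 0 rose in scAPs. Degs1 and Hacd3 lay in the filter, where the background called higher was 60.6% in viAPs and 29.1% in scAPs. Most of these genes lay outside it and were adjusted over all 21789 probe sets. Of these, 4.30% were called higher in viAPs, 0.532% lower in viAPs and 0.00459% higher in scAPs.

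Suppliers of carbon and reducing power did not pass. Of 10 measured, 0 lay in the filter and 0 were called in either depot. They were adjusted over all 21789 probe sets, of which 4.30% were called higher in viAPs and 0.00459% in scAPs. With no filter the 10 genes described had 4 calls in viAPs and 0 in scAPs, so these counts cannot set the suppliers apart from them. Malic enzyme Me1, which yields NADPH, changed by 0.50 in viAPs (limma adjusted p = 0.0819) and by 0.22 in scAPs (adjusted p = 0.495). Of 6 genes of the separate mitochondrial route, 0 of them in the filter, 1 fell in viAPs. This was the malonyl transferase Mcat, by 0.58 (adjusted p = 0.0452), beside 0.532% of all 21789 probe sets. Of 6 acyl-CoA synthetases, which activate fatty acids and of which 3 lay in the filter, 1 fell in viAPs. This was the transporter and synthetase Slc27a1, by 0.87 (adjusted p = 0.0220), beside 4.19% of the probe sets in the filter. Of 16 genes that build glycerolipids or exchange their acyl chains, 3 rose in viAPs, namely Mboat7 by 0.66 (adjusted p = 0.0376), Agpat1 by 0.54 (adjusted p = 0.0117) and Gpam by 0.54 (adjusted p = 0.0411), while Agpat2 fell by 0.59 (adjusted p = 0.0487), and 0 passed in scAPs. Only 2 of the 16 lay in the filter, Agpat1 and Gpam, where the background called higher was 60.6% in viAPs. Without SD viAP replicate 4 the change was 0.60 for Mboat7, -0.51 for Agpat2 and -0.63 for Mcat. The calls of these genes and of Gpam were close to the threshold. That of Agpat2 was lost whichever of the 8 arrays was left out, that of Gpam with 7 of them, and those of Mboat7 and Mcat with 6. Without SD viAP replicate 4 the change of Gpam was 0.29 (adjusted p = 0.167) and that of Slc27a1 was -0.48 (adjusted p = 0.0510).

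Of 18 regulators of lipogenic transcription 4 rose in viAPs and 2 in scAPs. These were among the 4 that lay in the filter, where the background called higher was 60.6% in viAPs and 29.1% in scAPs. Srebf1, whose product drives many lipogenic genes, read 7.64 and 7.70 in HFD viAPs, against 7.43 and 7.51 in SD viAPs, and 7.70 and 7.66 in HFD scAPs, against 7.29 and 7.43 in SD scAPs. Every HFD array of Srebf1 read higher than every SD array, and its changes of 0.20 and 0.32 did not pass (limma adjusted p of 0.305 and 0.280). Srebf1 lay outside the filter and was adjusted over all 21789 probe sets. Of these, 4.30% were called higher in viAPs and 0.00459% in scAPs, so the missing call cannot set Srebf1 apart from Srebf2, which lay in the filter. Srebf2, whose product favours sterol genes, read 9.19 and 9.10 in HFD viAPs, against 8.58 and 8.21 in SD viAPs, and 9.29 and 9.00 in HFD scAPs, against 7.79 and 8.01 in SD scAPs, and rose by 0.75 (adjusted p = 0.0130) and 1.25 (adjusted p = 0.0141). Insig1, whose product retains these factors in the endoplasmic reticulum and which is itself one of their targets, rose by 1.05 in viAPs (adjusted p = 0.00439) and by 1.26 in scAPs (adjusted p = 0.0141). Insig2 (1.10, adjusted p = 0.00620) and Mbtps1, a protease that takes part in releasing the factors (0.81, adjusted p = 0.00499), rose in viAPs. Without HFD viAP replicate 5 the 4 calls in viAPs had adjusted p of 0.0501 (Insig1 and Mbtps1), 0.0563 (Insig2) and 0.0830 (Srebf2), and that of Srebf2 was lost without SD viAP replicate 4 as well (0.56, adjusted p = 0.0560). In scAPs both calls were lost without either HFD scAP array, and also without SD scAP replicate 2 (adjusted p of 0.0516 to 0.0818). For Srebf2 in viAPs the call was lost with the second quantile normalization, at 0.40 (adjusted p = 0.147).

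Sterol synthesis, which shares these regulators, had 8 of 18 measured genes called higher in each depot. Of the 18, 9 lay in the filter, where the background called higher was 60.6% in viAPs and 29.1% in scAPs, and outside it 4.30% and 0.00459%. In viAPs 1 call was left without HFD viAP replicate 5 (Cyp51), and in scAPs leaving out HFD scAP replicate 7 left 1 (Cyp51), while leaving out HFD scAP replicate 8 left 0, as did leaving out SD scAP replicate 2. The list's median was 0.66 in viAPs and 0.83 in scAPs. The largest changes in viAPs were those of the demethylase Cyp51 (1.93), the oxidase Msmo1 (1.70), the isomerase Idi1 (1.60) and the synthase Hmgcs1 (1.29), and in scAPs those of Cyp51 (2.28), the epoxidase Sqle (2.22), Idi1 (2.21) and Msmo1 (1.77). Beside them, Fads2 rose by 1.57 in viAPs and by 1.31 in scAPs.

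**Figure D4:**
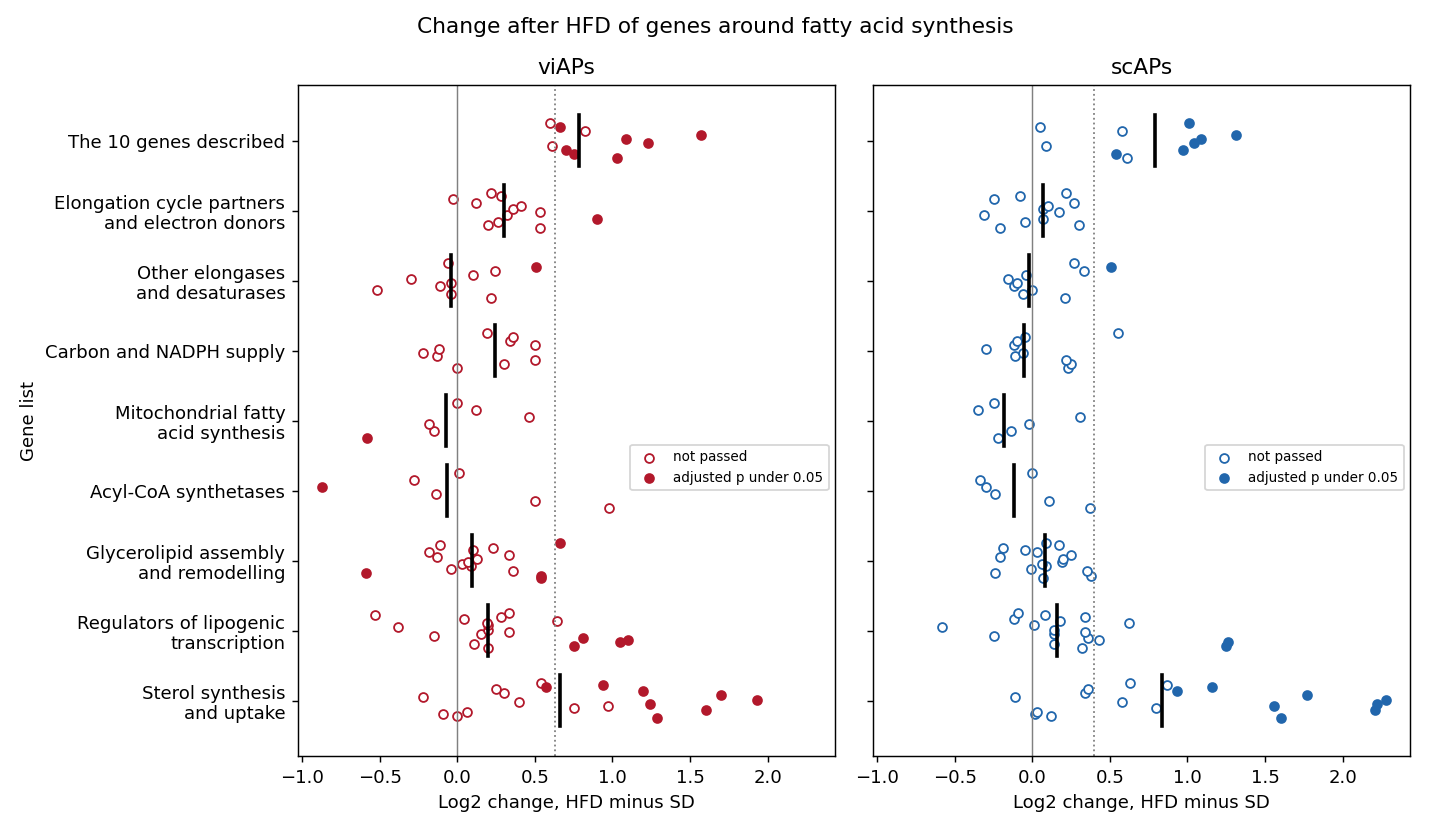
Log2 change after HFD (x axis) of single genes, by list (y axis), in viAPs (left) and scAPs (right). Each dot is a gene, filled where its adjusted p is under 0.05, black bars are list medians, the solid line is 0 and the dotted line is the median of all tested probe sets. The 10 genes described have medians of 0.78 and 0.79, and the sterol genes 0.66 and 0.83, while the medians of the other 7 lists drawn lie lower. All 10 genes described lie in the filter, and every other list lies partly or wholly outside it, so the lists differ in brightness and variability.

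Markers of other cells moved with the diet beside these genes. The summed intensity of the 18 mature adipocyte markers was 3957 to 4251 in HFD viAPs. On SD viAP replicate 3 it was 5496, and on SD viAP replicate 4, which read like scAPs in genes of depot identity, 7009. In scAPs it was 7151 to 7157 after HFD, against 5958 to 7288 on SD. Bright genes weigh most in this sum, among them Car3. Car3 read 7.40 and 7.77 in HFD viAPs, against 11.17 and 10.86 in SD viAPs, and 8.66 and 9.83 in HFD scAPs, against 10.71 and 11.15 in SD scAPs. The list's median change was -0.41 in viAPs, with 1 marker apart above and 9 apart below SD. In scAPs it was 0.08, with 7 apart above and 7 below. Of these markers 4 fell in viAPs (Plin4, Car3, Aqp7 and Retn) and 0 rose, and in scAPs Aqp7 and Pparg rose and Car3 fell. Of the 18, 6 lay in the filter, where the background called lower was 4.19% in viAPs and 1.3% in scAPs. The background called higher there was 60.6% and 29.1%. Retn lay outside it, where 0.532% were called lower in viAPs. Plin4 read 5.91 and 5.88 in HFD viAPs, against 6.61 on SD viAP replicate 3 and 8.01 on SD viAP replicate 4. The sum of 16 endothelial markers, of which 4 were above a level of 7, was 2453 to 2637 in HFD viAPs, against 1894 to 1971 in SD viAPs, and 3797 to 3814 in HFD scAPs, against 2029 to 2165 in SD scAPs. In viAPs this sum was carried by the bright Eng and Tek, which rose by 0.93 and 0.69, while the list's median change was -0.27, with 3 markers apart above and 8 apart below SD. In scAPs the median was 0.99, with 15 of 16 apart above SD and Eng (1.10) and Cdh5 (1.83) called. Only 4 of the 16 lay in the filter, and Pecam1 (1.43), Kdr (1.52) and Emcn (1.80), outside it, did not pass. These were adjusted over all 21789 probe sets, of which 0.00459% were called higher in scAPs, so this cannot set them apart from Eng and Cdh5. Among the tested probe sets 78.7% were apart above SD and 8.32% below it in viAPs, and 62.3% and 7.38% in scAPs. The sum of 12 blood cell markers was 497 to 645 on all arrays. The parts of adipocytes and of endothelial cells in the changes of the fatty acid genes were not tested.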

How the data were processed

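For each of 35556 probe sets the authors deposited an intensity per array, made with RMA (background correction, quantile normalization between arrays, summary of probes) and stored as linear, rounded numbers. Affymetrix Expression Console 1.1 is named in the processing notes and an R package in the study's methods, without mention of the rounding or of the return from the log scale. Here the deposited intensities were turned into log2 with nothing added. Group means over the 8 arrays were estimated for all probe sets by lmFit and eBayes of limma 3.58.1 (R 4.3.3). Benjamini-Hochberg adjustment ran over 3076 of the 21789 probe sets with a single symbol, namely those brighter than 7 (log2) on 3 or more arrays and in the upper tercile of mean absolute deviation, as in the study's methods. Genes outside this filter were adjusted over all 21789, and no 2-fold limit was set unless stated. Gene lists use the brightest probe set of a symbol. Genes were named as all 10 members, set regulators and relatives, the called genes of each list (at most the 4 with the largest change), and the 5 genes most like Fads2 and Scd1. Members and lists were chosen with earlier results of these data known. The procedure was run on simulated data with independent noise, without the variability part of the filter and without a broad rise. That run therefore does not test the conditions met here. Promoters are those of RefSeq (GRCm38.p6). Figures were drawn with matplotlib 3.10.9. The labels name no batch, and the number of arrays limits the precision.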

Additional observations from a re-analysis of the deposited data

How the results depend on the processing

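No paired analysis was possible because the arrays carry the numbers 1 to 8 and no number is shared between groups. In viAPs 7 of the 10 genes were called, against 4 with no filter, 4 with the 2-fold limit, 10 with each array centred on its median, and 0 to 9 when single arrays were left out (0 without HFD viAP replicate 5, 9 without SD viAP replicate 3). In scAPs 6 were called, against 0 with only the 4 arrays of the comparison, 0 with no filter, 2 with a second quantile normalization, 2 with the expression part of the filter alone, 3 without moderation, and 0 to 7 when single arrays were left out (2 without HFD viAP replicate 5 or 6). Between the depots after HFD 0 were called, against 1 with only the 4 arrays of the comparison and 0 to 1 when single arrays were left out, and on SD 0, against 0 to 1. The difference of the diet changes had 0 calls under every alternative run. Among pathway genes outside the 10, 17 rose in viAPs, against 10 with the second quantile normalization, 11 with no filter and 1 to 18 when single arrays were left out, and 11 rose in scAPs, against 1 with no filter and 0 to 13. Moderation within the filter alone, an alternative chosen after seeing the data, gave 8 calls in viAPs and 6 in scAPs. The cause of these shifts was not tested, except that leaving out an array leaves 7 arrays and that the unfiltered setting adjusts over more probe sets.

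Some changes close to 0 turned sign. Under the second quantile normalization these were Scd1 (-0.12), Elovl5 (-0.17), Gpam (-0.03), Mboat7 (-0.01) and Elovl1 (-0.01) in scAPs, Srebf1 (-0.00) and Elovl1 (-0.11) in viAPs, and Scd2 between the depots on SD (0.01). The difference of the diet changes of Fads1 was 0.01 with 16 added to each value and 0.01 with centring. When single arrays were left out, the change in scAPs ran from -0.17 to 0.35 for Scd1, -0.17 to 0.27 for Elovl5, -0.32 to 0.46 for Hacd3, -0.04 to 0.18 for Gpam and -0.07 to 0.50 for Elovl1, and in viAPs from -0.06 to 0.51 for Elovl1. The difference of the diet changes ran from -0.35 to 0.72 for Scd2, -0.16 to 0.16 for Fads1, -0.23 to 0.75 for Fads2 and -0.25 to 0.73 for Fads3. The depot difference after HFD ran from -0.05 to 0.31 for Acaca and -0.05 to 0.29 for Scd1, and on SD from -0.62 to 0.04 for Acaca, -0.60 to 0.46 for Scd2 and -0.02 to 0.96 for Fads2. Leaving out 1 array leaves 1 in its group, which is then assumed to vary like the others. Probe sets near a level of 4 to 6 are close to the dim end of the arrays.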
